A study of Mus musculus with 36 samples.

Results

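Transcripts of 10 genes that mark primordial germ cells and pluripotency were followed in bulk RNA-seq counts of mouse embryonic gonads with and without the miR-17~92 cluster. The genes were taken by symbol from the count tables of both stages: Pou5f1, Nanog and Sox2, Dppa3 and Dppa5a, Prdm14 and Tfap2c, and Dazl, Ddx4 and Dnd1. They are 10 of the 21699 genes in each table, and all 10 passed the filter on low counts, where 14217 genes could be tested at E11.5 and 14348 in the E12.5 table. The 4 genotypes were controls (XX control, XY control) and mutants (XX KO, XY KO), with 3 libraries of each at each stage and 24 libraries in all. Controls carry the label WT, and whether they carried the Cre transgene or a floxed allele is not given in the sources used here. KO embryos, labelled MiRC1 Mutant, carried the Cre transgene Tg(CAG-cre)1Nagy and were homozygous for the miR-17~92 del allele, derived from floxed mice of mixed C57BL/6 × 129S4/SvJae background. CAG is a broadly active promoter, so that the deletion is not restricted to germ cells or to any gonadal cell type. Each library pooled 2 pairs of gonads. At E11.5 the RNA came from the gonad together with the mesonephros, the embryonic kidney beside it, and at E12.5 from the gonad alone, with a different stranded library kit. Stages are therefore set side by side and no difference between them was tested. The p-values measure the spread between these pooled libraries.

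Primordial germ cells arise outside the gonad, migrate into it and keep a pluripotency programme (POU5F1, NANOG and SOX2) beside germ cell genes for some time after arrival. In a fetal ovary germ cells then enter meiosis and shut the pluripotency genes down, whereas in a fetal testis they are kept out of meiosis by somatic signals and pluripotency transcripts persist longer. In a whole gonad these transcripts come largely from germ cells, a small fraction of the tissue. A lower level in bulk RNA can therefore mean fewer germ cells or less of the transcript in each, and the 2 cannot be told apart here.

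Total counts per library lay between 17150620 and 34077443 at E11.5 and between 11877379 and 44155275 at E12.5. Levels are given as CPM, the number of counts scaled to a common library size with TMM factors. Sex-linked genes followed the labels, with Xist at 1340 to 2990 CPM in XX and at most 4.71 CPM in XY libraries. Mir17hg, the host gene of the cluster, had 13.4 to 44.6 CPM in control and 66.7 to 154 CPM in KO libraries. Its counted exons reach beyond the microRNAs, so that this count does not check the deletion. Germ cell transcripts set several libraries apart from their own groups. XX control replicate 3 at E11.5 was the highest of its group for each of the 10 genes, with a summed level of 335 CPM against 120 and 167 CPM in the other 2 libraries. XX KO replicate 2 at E11.5 summed to 176 CPM against 92.7 and 69.0 CPM. XX KO replicate 3 at E12.5 had a summed level of 420 CPM against 926 and 844 CPM, and was the lowest of all 12 libraries for Nanog, Sox2, Dppa3, Prdm14, Dazl and Ddx4. XX control replicate 2 at E12.5 was the highest of its group for each of the 10 genes, with a summed level of 1780 CPM. The other 2 libraries of that group summed to 1080 and 1110 CPM. Results that rest on these libraries are given below also without them.

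The deleted cluster encodes 6 microRNAs within 1 kilobase of chromosome 14 (GRCm38.p6, forward strand). Their RefSeq mature sequences are shown 5′ to 3′ because the seed, bases 2 to 8 in capitals, sets which 3′ UTR letters were searched for in the 10 genes. miR-17-5p and miR-20a-5p share a seed, as do miR-19a-3p and miR-19b-3p.
miR-17-5p: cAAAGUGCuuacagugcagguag
miR-20a-5p: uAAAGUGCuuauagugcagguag
miR-18a-5p: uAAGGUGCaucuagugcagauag
miR-19a-3p: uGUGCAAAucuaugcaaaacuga
miR-19b-3p: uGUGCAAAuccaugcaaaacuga
miR-92a-3p: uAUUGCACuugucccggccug

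The longest annotated 3′ UTR of each gene (GENCODE M21) was searched for the reverse complement of each seed, namely GCACTTT for miR-17 and miR-20a, GCACCTT for miR-18a, TTTGCAC for both miR-19 forms and GTGCAAT for miR-92a. Of the 10 genes, 8 held no match, among them Pou5f1 (3′ UTR of 221 nt), Nanog (1078 nt), Sox2 (1086 nt) and Tfap2c (1246 nt). Of all 21123 protein-coding genes with a 3′ UTR, 30.3% held at least 1 match, but the share depends on length. Among genes whose 3′ UTR was within 20% of the member's length it was 3.4% for Dppa5a, 4.3% for Pou5f1, 5.7% for Dppa3, 7.9% for Dnd1, 16% for Ddx4, 21.1% for Prdm14, 26.5% for Nanog and Sox2, 30% for Tfap2c and 39.2% for Dazl. The 2 matches are shown with their flanks, the match in capitals. In Prdm14 a miR-19 match begins at base 578 of an 803 nt 3′ UTR (chr1:13113668-13113690, reverse strand), and 12% of the genes hold this match. In Dazl a miR-18a match begins at base 1269 of an 1854 nt 3′ UTR (chr17:50279966-50279988, reverse strand), and 8.6% of the genes hold it. A match is a description of letters and not evidence of repression.
Prdm14, miR-19 match: ccaagcaaTTTGCACtacctaga
Dazl, miR-18a match: ctggaacaGCACCTTgctaccta

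RefSeq start-site windows of 300 bases (GRCm38.p6) were at hand for Pou5f1, Nanog, Sox2, Dazl and Ddx4. They were searched on both strands for the octamer ATGCAAA bound by POU5F1, the SOX motif CATTGT, the E-box CACGTG and the E2F6 motif TCCCGC. Whether these motifs bear on the levels of the genes was not tested. The Nanog window holds an octamer and a SOX motif 1 base apart, the composite arrangement known from pluripotency genes. The Sox2 window holds an octamer, and that of Ddx4 an E-box and an E2F6 motif, the kind of elements that keep germ cell genes silent in somatic cells. The second of 2 Pou5f1 windows holds a SOX motif, with its first base at -158 from the start, and the first Pou5f1 window and that of Dazl hold none of the 4 motifs. Of all 32851 windows 4.6% hold the octamer, 12.6% the SOX motif, 7.2% the E-box and 20% the E2F6 motif. Segments of 30 bases are shown on the gene's strand with the motifs in capitals, from chr6:122707403-122707432 (Nanog, forward strand), chr3:34649885-34649914 (Sox2, forward strand) and chr13:112652322-112652351 (Ddx4, reverse strand). The ratio of observed to expected CpG was 0.98 for Ddx4, 0.8 for Dazl and 0.82 for Sox2, but 0.19 and 0.18 for the Nanog starts and 0.37 and 0.39 for the Pou5f1 starts, against a median of 0.38 over all windows.
Nanog: ttacagcttctTTTGCATtACAATGtccat
Sox2: cgccccctttcATGCAAAaccctctggcga
Ddx4: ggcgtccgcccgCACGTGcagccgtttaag

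All 10 genes were detected in every library. Compared per exon length, as RPKM, Dppa5a had the highest mean level in XX controls at both stages, 58.5 ± 23.6 RPKM (SD, n = 3) at E11.5 and 215 ± 39.6 RPKM at E12.5. Dppa3 had 20.4 ± 8.97 and 89.3 ± 20.9 RPKM, and Pou5f1 had 20.3 ± 9.15 and 75.0 ± 12.4 RPKM. Prdm14 was the lowest at both stages, with 1.25 ± 0.652 and 6.44 ± 1.76 RPKM. Dazl and Ddx4, both germ cell RNA regulators that switch on as the cells settle in the gonad, stood at 6.14 ± 6.27 and 6.84 ± 6.42 RPKM in E11.5 XX controls and at 129 ± 57.3 and 73.0 ± 30.4 RPKM 1 day later. In XX controls the levels of Dppa3 and Pou5f1 did not differ beyond their spread at either stage. In XY controls at E12.5 Dppa3 was higher, at 133 ± 33.3 RPKM against 66.8 ± 4.54 RPKM for Pou5f1 (n = 3). The summed level of the 10 genes was 69.0 to 335 CPM over the libraries of E11.5 and 420 to 1780 CPM over those of E12.5.

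**Figure D1:**
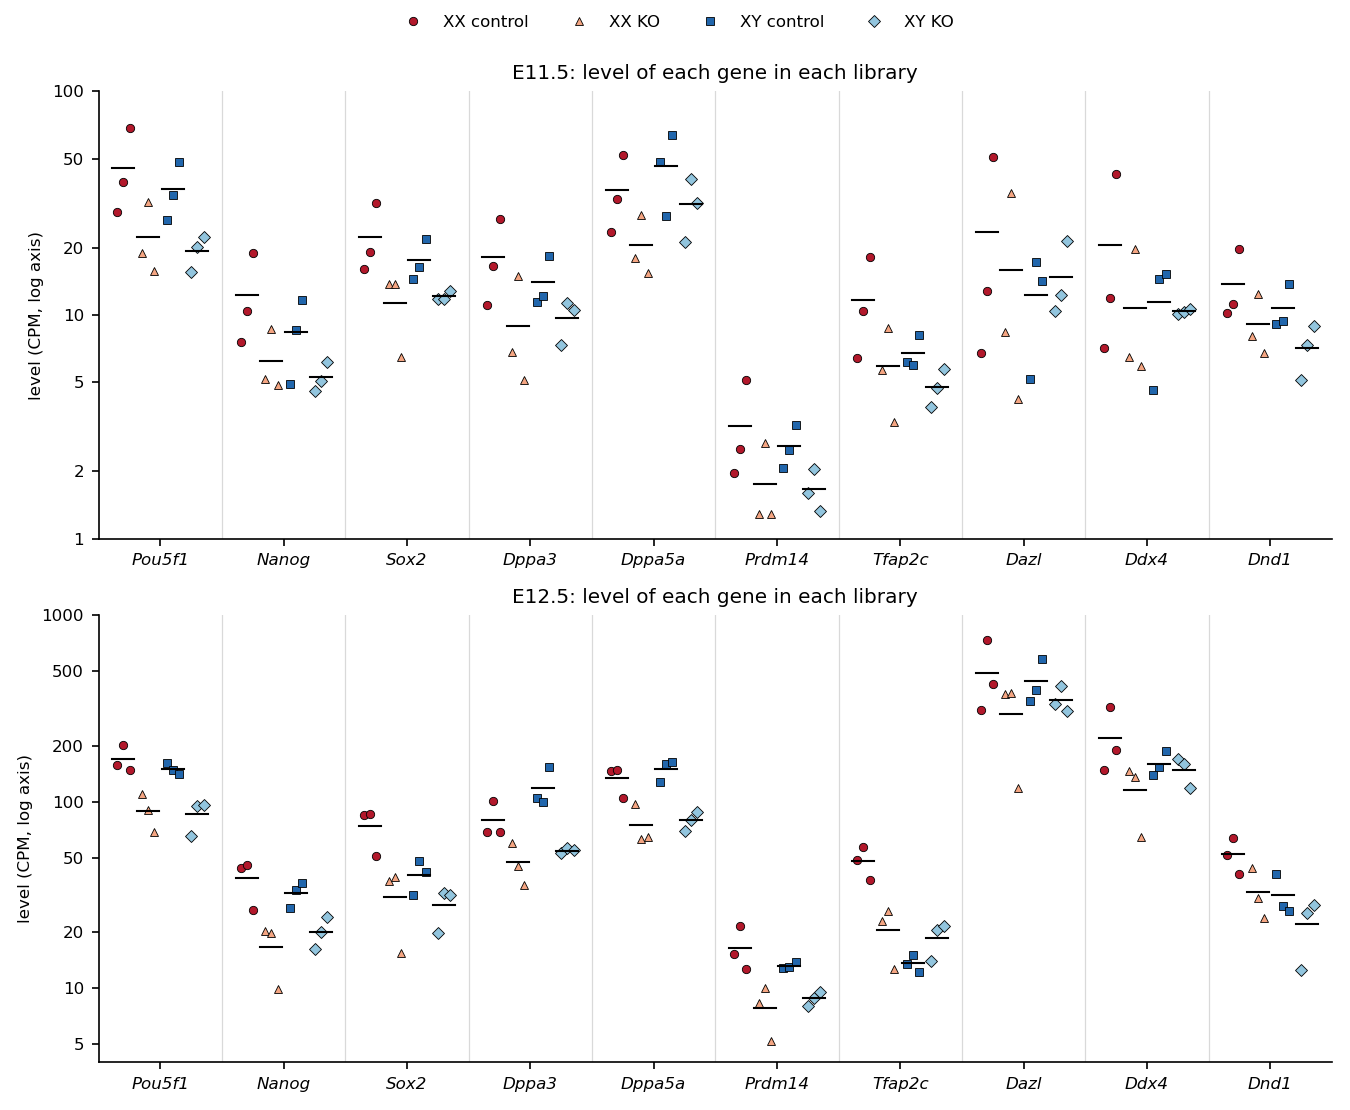
Level of each of the 10 genes in CPM (log axis) in each of the 24 libraries, E11.5 above and E12.5 below. Points are libraries, black bars are means of 3 libraries. At E12.5 the KO points of Pou5f1, Nanog, Dppa3, Dppa5a and Prdm14 lie below the control points of the same sex, in both sexes. The Tfap2c points of XX controls (38.1 to 57.1 CPM) lie above all others.

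At E12.5 the deletion was tested in each sex. In XX gonads 6 of the 10 genes fell (Pou5f1, Nanog, Sox2, Dppa5a, Prdm14 and Tfap2c; edgeR quasi-likelihood test, FDR under 0.05). In that comparison 5.26% of all tested genes were called, and 1.85% were called lower. In XY gonads 3 fell (Pou5f1, Dppa3 and Dppa5a), where 20.6% of all tested genes were called, and 10.3% called lower. No gene of the 10 rose in either sex. The median log2 fold change of the 10 genes was -0.92 in XX and -0.55 in XY gonads, against -0.002 and -0.008 over all tested genes. In XX gonads all 3 KO libraries lay below all 3 controls for 8 of the 10 genes, which held for 10.5% of all tested genes. In XY gonads the same held for 5 genes, against 19.3% of all tested genes. DESeq2 called 8 genes lower in XX and 3 in XY gonads. Of all 14348 tested genes it called 1456 in XX and 3353 in XY gonads, in either direction.

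**Figure D2:**
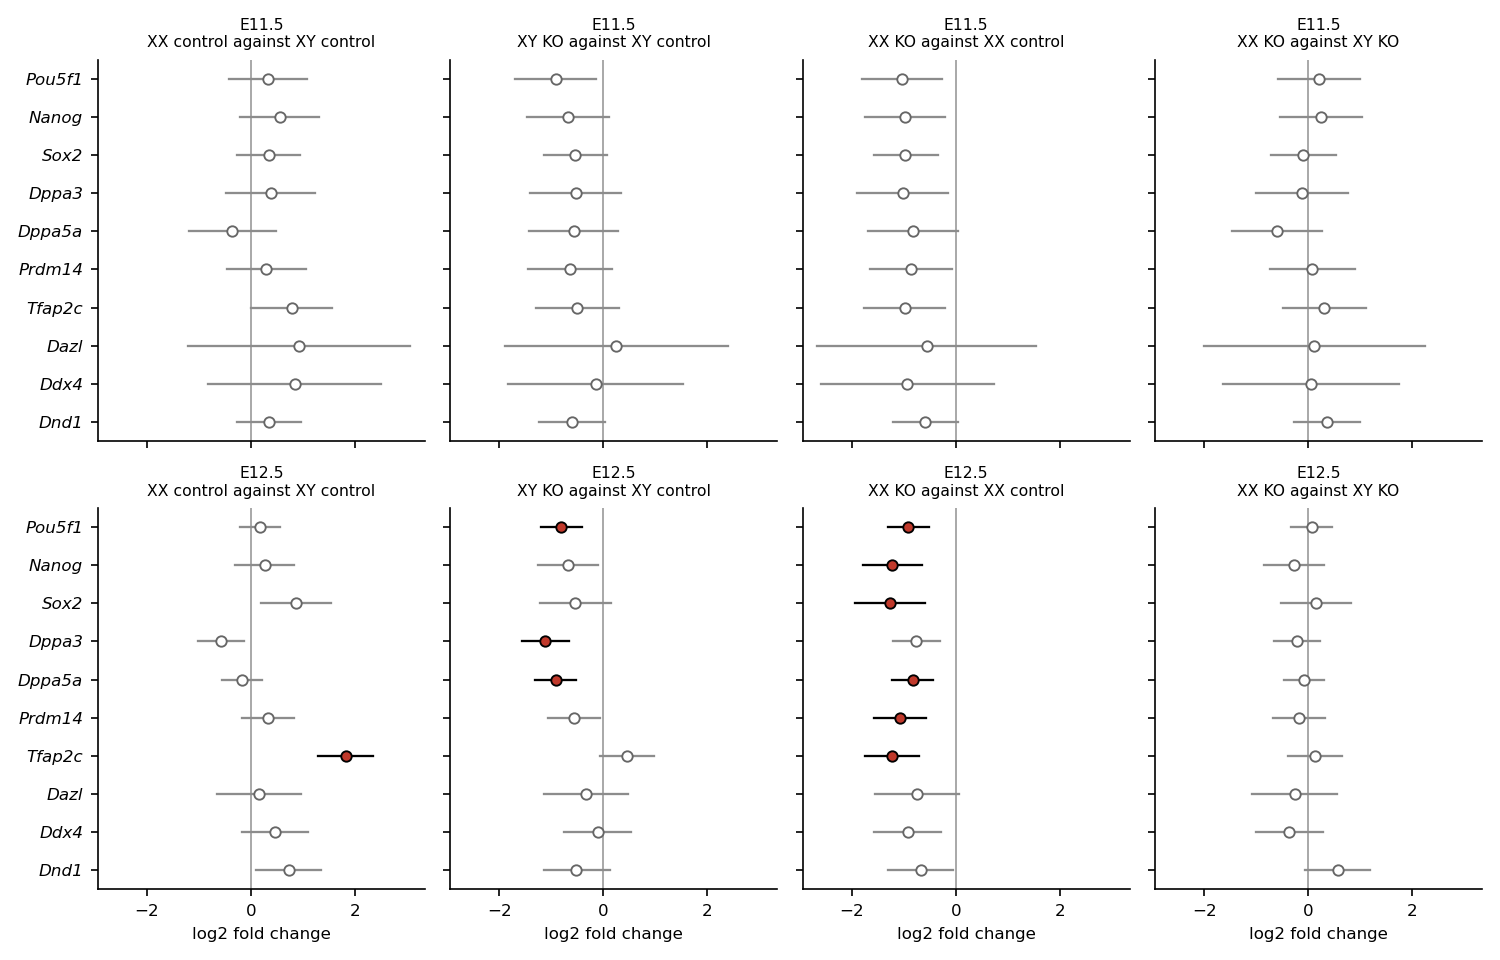
Log2 fold change of each gene (circles) with its 95% confidence interval (lines) in 4 comparisons at E11.5 (upper row) and E12.5 (lower row). Filled circles passed FDR under 0.05 in edgeR: none at E11.5, and at E12.5 Tfap2c between controls, 3 genes in XY and 6 in XX gonads, none between the KO genotypes.

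The core pluripotency factors are Pou5f1, whose protein OCT4 is also needed for the survival of primordial germ cells, Nanog and Sox2. Pou5f1 (chr17:35506018-35510772) had 157, 200.4 and 148.5 CPM in XX controls and 109.5, 90.5 and 68.7 CPM in XX KO gonads. In XY gonads it had 161, 148 and 141 CPM in controls and 65.8, 94.9 and 96.0 CPM in KO. In both sexes every KO library lay below every control library. Pou5f1 fell by 0.91 on the log2 scale in XX (standard error 0.18, FDR = 0.0152) and by 0.81 in XY gonads (standard error 0.18, FDR = 0.00529; edgeR). These are 1.88-fold and 1.76-fold lower levels. Part of its exons overlaps the antisense gene Gm19553, and a second deposited count of the XY control libraries gave 0.793 to 0.883 times the Pou5f1 counts used here.

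Nanog (chr6:122707489-122714633) had 44.3, 46.0 and 26.3 CPM in XX controls and 20.2, 19.9 and 9.91 CPM in XX KO gonads. It fell by 1.22 on the log2 scale (standard error 0.27, FDR = 0.0222; edgeR), 2.33-fold. XY controls had 27.0, 33.4 and 36.8 CPM of Nanog and XY KO gonads 16.2, 20.1 and 24.1 CPM. The XY libraries did not overlap either, but the log2 fold change of -0.68 (95% interval -1.25 to -0.11) was not called (FDR = 0.0911).

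Sox2 (chr3:34650405-34652461) had 84.9, 86.1 and 51.4 CPM in XX controls and 37.7, 39.6 and 15.4 CPM in XX KO gonads. It fell by 1.26 on the log2 scale (standard error 0.31, FDR = 0.0357; edgeR), 2.4-fold. XY controls had 31.6, 48.4 and 41.8 CPM of Sox2, overlapping the 19.8, 32.2 and 31.7 CPM of XY KO gonads. Its XY value of -0.54 (95% interval -1.22 to 0.14) was not called. The lowest level of Sox2 in XX controls exceeded the highest in XY controls, and its difference between the controls, 0.87 on the log2 scale (95% interval 0.20 to 1.54), missed the threshold (FDR = 0.059) and passed it in DESeq2 (adjusted p = 0.0222).

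Dppa3 encodes a protein that protects maternal DNA methylation in the early embryo and marks germ cells from their specification on. Dppa5a encodes an RNA-binding protein of pluripotent cells. Dppa3 (chr6:122626410-122630272) had 104, 99.3 and 153 CPM in XY controls and 52.8, 56.5 and 54.9 CPM in XY KO gonads. The 3 KO libraries lay within 1.07-fold of each other and below all controls. Dppa3 fell by 1.12 on the log2 scale (standard error 0.21, FDR = 0.0014; edgeR), 2.17-fold, the largest fall among the 10 genes in XY gonads. In XX gonads it had 68.9, 101.2 and 68.9 CPM in controls and 60.3, 45.5 and 35.9 CPM in KO. Those libraries did not overlap either, and the value of -0.76 (95% interval -1.20 to -0.31) lay just outside the threshold (FDR = 0.0511; DESeq2 adjusted p = 0.0101). Dppa3 was also one of 2 genes with a higher mean in XY than in XX controls, with a log2 fold change of -0.57 for XX against XY (95% interval -1.02 to -0.13) that was not called (FDR = 0.0603; DESeq2 adjusted p = 0.0372). The annotation names processed pseudogenes of Dppa3 and also of Nanog and Dnd1. The second count of the XY controls gave 1.23 to 1.32 times the Dppa3 counts used here.

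Dppa5a (chr9:78367052-78368177) fell in both sexes. It had 146, 149 and 105 CPM in XX controls and 97.0, 63.4 and 64.8 CPM in XX KO gonads. In XY gonads it had 128, 159.5 and 164 CPM in controls and 70.0, 79.9 and 88.5 CPM in KO. In each sex the KO libraries lay wholly below the controls. The fall was 0.83 on the log2 scale in XX (standard error 0.18, FDR = 0.0229) and 0.92 in XY gonads (standard error 0.18, FDR = 0.00213; edgeR). With edgeR as described, Dppa5a and Pou5f1 were called in both sexes. DESeq2, and edgeR with DESeq2 size factors or with library size as the only scaling, called Dppa3 in both as well.

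Prdm14 and Tfap2c encode transcription factors that specify primordial germ cells in the early embryo. Prdm14 (chr1:13113457-13127163) had 15.3, 21.5 and 12.7 CPM in XX controls and 8.32, 10.1 and 5.19 CPM in XX KO gonads. It fell by 1.07 on the log2 scale (standard error 0.23, FDR = 0.0221; edgeR). In XY gonads it had 12.8, 13.0 and 13.8 CPM in controls and 8.07, 8.91 and 9.58 CPM in KO. Both genotypes were tight in XY and did not overlap, but the value of -0.57 (95% interval -1.07 to -0.06) was not called (FDR = 0.11).

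Tfap2c (chr2:172549593-172558622) departed from the other genes at E12.5 through its low level in XY controls. Its level was 48.8, 57.1 and 38.1 CPM in XX controls but 13.5, 15.0 and 12.3 CPM in XY controls. It was therefore higher in XX than in XY controls by 1.82 on the log2 scale (standard error 0.25, FDR = 7.58e-05; edgeR), 3.52-fold, the only one of the 10 genes called between the controls, where 23.8% of all tested genes were called and 11.4% were higher in XX. DESeq2 called 3 higher, namely Sox2, Tfap2c and Dnd1, and Dppa3 lower, and it called 3788 of all 14348 tested genes. In XX KO gonads Tfap2c had 22.9, 25.8 and 12.6 CPM, a fall of 1.23 (standard error 0.24, FDR = 0.0137), whereas XY KO gonads had 14.0, 20.5 and 21.5 CPM. Replicates 2 and 3 of XY KO lay above all XY controls and replicate 1 among them, and the log2 fold change of 0.45 (95% interval -0.07 to 0.98) was not called. The effect of the deletion in XY minus that in XX gonads, the interaction of deletion and sex, was 1.68 for Tfap2c (95% interval 0.95 to 2.42, FDR = 0.00419; edgeR). It was the only interaction called among the 10 genes, where 12.9% of all tested genes were called.

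The level of each gene relative to its fellows was also described, as log2(CPM + 0.5) minus the mean of the other 9 genes in the same library; this measure was chosen with the values known and carries no test. For Tfap2c it was -2.47 ± 0.24 (SD, n = 3) in XY controls, -0.92 ± 0.12 in XX controls, -1.22 ± 0.18 in XX KO and -1.42 ± 0.15 in XY KO gonads. Relative to the other germ cell transcripts, the XY KO libraries thus lay 1.04 above the XY controls without overlap. Dppa3 showed the opposite order, with 0.93 ± 0.29 in XY controls and -0.12 ± 0.12 in XX controls, and lay at 0.13 in XX KO and 0.30 in XY KO gonads. XY controls stood apart from the other 3 genotypes for both genes, without overlap of libraries. Other genes separated in part. Compared with XY controls, Dppa5a lay lower without overlap in XX controls (-0.62) and XY KO gonads (-0.44). So did Pou5f1 in XY KO gonads (-0.35) and Prdm14 in XX controls (-0.1). For these genes the XY controls overlapped the XX KO libraries. The share over all genes was not computed.

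**Figure D3:**
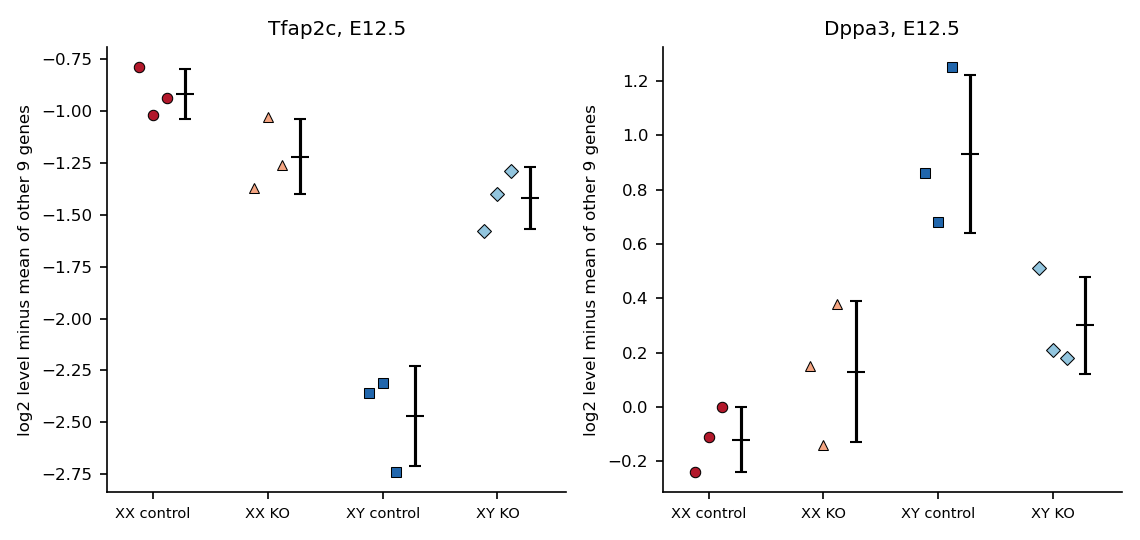
Tfap2c and Dppa3 at E12.5 relative to the other 9 genes: log2(CPM + 0.5) minus their mean in the same library. Points are libraries, bars are means ± SD of 3 libraries; XY controls are the lowest group for Tfap2c (mean -2.47) and the highest for Dppa3 (mean 0.93), apart from all libraries of the other 3 genotypes.

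Dazl, Ddx4 and Dnd1 encode RNA-binding proteins of germ cells: DAZL licenses germ cells for sexual differentiation, DDX4 is the germ cell RNA helicase also known as VASA, and DND1 protects germ cells from death. None of them was called by edgeR between KO and control at E12.5, while Ddx4 and Dnd1 had an unadjusted p under 0.05 in XX gonads and DESeq2 called Ddx4 there. Dazl (chr17:50279395-50293636) had 311, 735 and 429 CPM in XX controls and 379.5, 383 and 119 CPM in XX KO gonads. In XY gonads it had 348.5, 396 and 580.4 CPM in controls and 333, 415 and 305 CPM in KO. The libraries overlapped in both sexes, with log2 fold changes of -0.74 (95% interval -1.56 to 0.07) in XX and -0.33 (-1.14 to 0.48) in XY gonads.

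Ddx4 (chr13:112598333-112652475) had 147.5, 323 and 190 CPM in XX controls and 147, 136 and 64.8 CPM in XX KO gonads. These did not overlap, by a narrow margin, and the value of -0.92 (95% interval -1.57 to -0.28) was not called (FDR = 0.0876; DESeq2 adjusted p = 0.0217). In XY gonads Ddx4 had 139, 154 and 187 CPM in controls and 169.5, 158 and 118 CPM in KO, a value of -0.10 (-0.75 to 0.54). Dnd1 had 52.0, 63.7 and 41.1 CPM in XX controls, 44.2, 30.4 and 23.8 CPM in XX KO, 41.0, 27.7 and 25.8 CPM in XY controls and 12.45, 25.5 and 28.1 CPM in XY KO gonads. Its values were -0.67 (-1.30 to -0.05) in XX and -0.52 (-1.15 to 0.12) in XY gonads. Dnd1 shares exon sequence with Wdr55 on the other strand, and the strand setting of the counts is not given in the sources used here.

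XX KO was also set against XY KO at E12.5. This gave 0 of the 10 genes called by edgeR (0 at an unadjusted p under 0.05, 0 by DESeq2), where 0.153% of all tested genes were called, so that a count of 0 is near that background. The 95% intervals of the difference bound it: for Tfap2c from -0.38 to 0.65 on the log2 scale, for Pou5f1 from -0.32 to 0.46 and for Dazl from -1.07 to 0.56. The largest value was that of Dnd1, 0.57 (95% interval -0.06 to 1.20). Relative to the other 9 genes, the XX KO libraries lay above the XY KO libraries for Dnd1 (difference 0.77) and below them for Nanog (-0.25), without overlap. The libraries of the remaining genes overlapped. This measure carries no test, and its share over all genes was not computed. In CPM, 10.3% of all tested genes lay higher and 9.75% lower in XX KO without overlap, so no difference is read from these genes.

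The number of calls in XX gonads at E12.5 depended on single libraries, over all genes as well as among the 10. Without XX control replicate 1, 0 of the 10 genes were called in XX gonads (9 at an unadjusted p under 0.05, median -1.05), and without XX control replicate 2 also 0 (7, median -0.75). Over all tested genes the calls dropped from 755 to 35 and 83 in these fits. Without XX KO replicate 3 only Tfap2c was called among the 10, with a median of -0.74, and 117 of all genes. In a fit of the 6 XX libraries alone 2 were called, Pou5f1 and Tfap2c, and 252 of all genes. Without XX KO replicate 2, 1670 of all genes and 6 of the 10 were called. The 3 calls in XY gonads, the Tfap2c difference between controls and its interaction held in every alternative tried.

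Some lists of markers of other tissues differed between genotypes at E12.5, and others differed little. Endothelial, macrophage and erythroid markers had 0 called in XX gonads. In XY gonads 2, 1 and 0 of them were called higher and 0 lower. The summed level of 10 markers of mesonephric tubules and duct was 79.2 to 83.5 CPM in XX controls, 110 to 175 CPM in XX KO, 32.7 to 38.5 CPM in XY controls and 63.4 to 129 CPM in XY KO gonads, with none at 0 in any group. The sum of 10 markers of gonadal somatic cells was 2460 to 2940 CPM in XX controls and 2640 to 3140 CPM in XX KO gonads, and 2150 to 2320 against 2510 to 2760 CPM in XY gonads. The XX ranges overlapped, and in XY KO gonads 4 of these markers were called higher and 2 lower. Sertoli cell markers summed to 1510 to 2120 CPM in XY controls and to 43.3 to 64.2 CPM in XY KO gonads. Markers of neural crest, glia and autonomic neurons (14 genes, none at 0 in any group) summed to 120 to 135 CPM in XY controls, 51.3 to 69.3 CPM in XY KO, 47.6 to 48.3 CPM in XX controls and 49.3 to 57.9 CPM in XX KO gonads. The sum does not stand for the whole list. Of the 14 genes 8 were tested, and in XY KO gonads 3 were called lower and 1 higher, with a median log2 fold change of 0.12. Proliferation markers summed to 2400 to 2900 CPM in XX controls, 2120 to 2430 CPM in XX KO, 3090 to 3530 CPM in XY controls and 2580 to 2620 CPM in XY KO gonads. Their part in the lower germ cell transcripts was not tested.

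At E11.5 edgeR called none of the 10 genes in any comparison. In XX gonads all 10 log2 fold changes of KO against control lay below 0, from -0.55 (Dazl) to -1.04 (Pou5f1), with a median of -0.95 against -0.002 over all tested genes. edgeR called 0 of them at FDR under 0.05 and 6 had an unadjusted p under 0.05, while 3.27% of all tested genes were called. DESeq2 called Sox2 lower (adjusted p = 0.011), and 778 of all 14217 tested genes in either direction. In XY gonads 9 of the 10 values lay below 0, with a median of -0.56, or -0.35 without XY control replicate 3. There edgeR called 0 and 1 had an unadjusted p under 0.05 (Pou5f1), while 12.7% of all tested genes were called. DESeq2 called 0 of the 10, and 2347 of all 14217 tested genes. XY KO libraries lay below all XY controls for 6 genes (Pou5f1, Sox2, Dppa3, Prdm14, Tfap2c and Dnd1), against 14.5% of all tested genes. In XX gonads this held for Sox2 alone, against 11.9%. Macrophage markers were also lower in KO gonads at E11.5, with 3 of 10 called lower in XX and 4 of 10 in XY gonads. They summed to 136 to 153 CPM in XX controls, 79.3 to 111 CPM in XX KO, 125 to 157 CPM in XY controls and 86 to 121 CPM in XY KO gonads, with none at 0. The median log2 fold change of 10 mesonephric markers was -0.45 in XX gonads (0 called) and -0.36 in XY gonads (1 called lower). They summed to 328 to 376 CPM in XX controls, 268 to 301 CPM in XX KO, 211 to 344 CPM in XY controls and 231 to 234 CPM in XY KO gonads. The part of either in the germ cell values was not tested.

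Pou5f1 at E11.5 had 28.9, 39.3 and 68.6 CPM in XX controls and 18.9, 32.1 and 15.7 CPM in XX KO gonads, a log2 fold change of -1.04 (95% interval -1.81 to -0.27, FDR = 0.161; edgeR). In XY gonads it had 26.6, 34.5 and 48.4 CPM in controls and 15.6, 20.1 and 22.3 CPM in KO, a value of -0.92 (95% interval -1.70 to -0.14, FDR = 0.113). Sox2 had 16.0, 19.11 and 31.6 CPM in XX controls and 13.7, 13.8 and 6.50 CPM in XX KO gonads, a value of -0.97 (95% interval -1.58 to -0.35, FDR = 0.0943). The high values of XX controls came from replicate 3. Without that library 0 genes were called in XX gonads (1 at an unadjusted p under 0.05) and the median over the 10 genes was -0.49. Without XX KO replicate 2 Dppa3 was called, and the median was -1.33.

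Dazl and Ddx4 spread most between libraries of one group at E11.5, except for Ddx4 in XY KO gonads. There Dazl spread 2.07-fold and Ddx4 1.05-fold. Dazl had 6.74, 12.8 and 50.9 CPM in XX controls, 8.43, 35.1 and 4.20 CPM in XX KO, 5.19, 17.3 and 14.2 CPM in XY controls and 10.4, 12.4 and 21.4 CPM in XY KO gonads. The highest library of a group exceeded the lowest 7.55-fold in XX controls and 8.37-fold in XX KO gonads. Ddx4 had 7.15, 11.9 and 42.8 CPM in XX controls and 6.52, 19.8 and 5.90 CPM in XX KO gonads, but 10.1, 10.4 and 10.7 CPM in XY KO gonads. Nanog, in contrast, spread 2.48-fold in XX controls and 1.79-fold in XX KO gonads. The 95% intervals of Dazl were accordingly wide, from -2.66 to 1.55 in XX and from -1.89 to 2.40 in XY gonads, so that a 4-fold difference was not detectable.

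Between the controls at E11.5, 9 of the 10 values were higher in XX, with a median of 0.36. edgeR called 0, 1 had an unadjusted p under 0.05 (Tfap2c, 0.79, 95% interval 0.01 to 1.56, FDR = 0.273) and DESeq2 called 0, while 0.886% of all tested genes were called. Tfap2c had 6.39, 10.4 and 18.1 CPM in XX and 6.16, 5.95 and 8.16 CPM in XY controls, which just overlapped. Without XX control replicate 3 the median was -0.05. XX KO and XY KO gonads gave 0 calls (0 at an unadjusted p under 0.05 and 0 by DESeq2, 0.0844% of all tested genes called), as did the interaction of deletion and sex (0, 0 and 0.0352%).

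**Figure D4:**
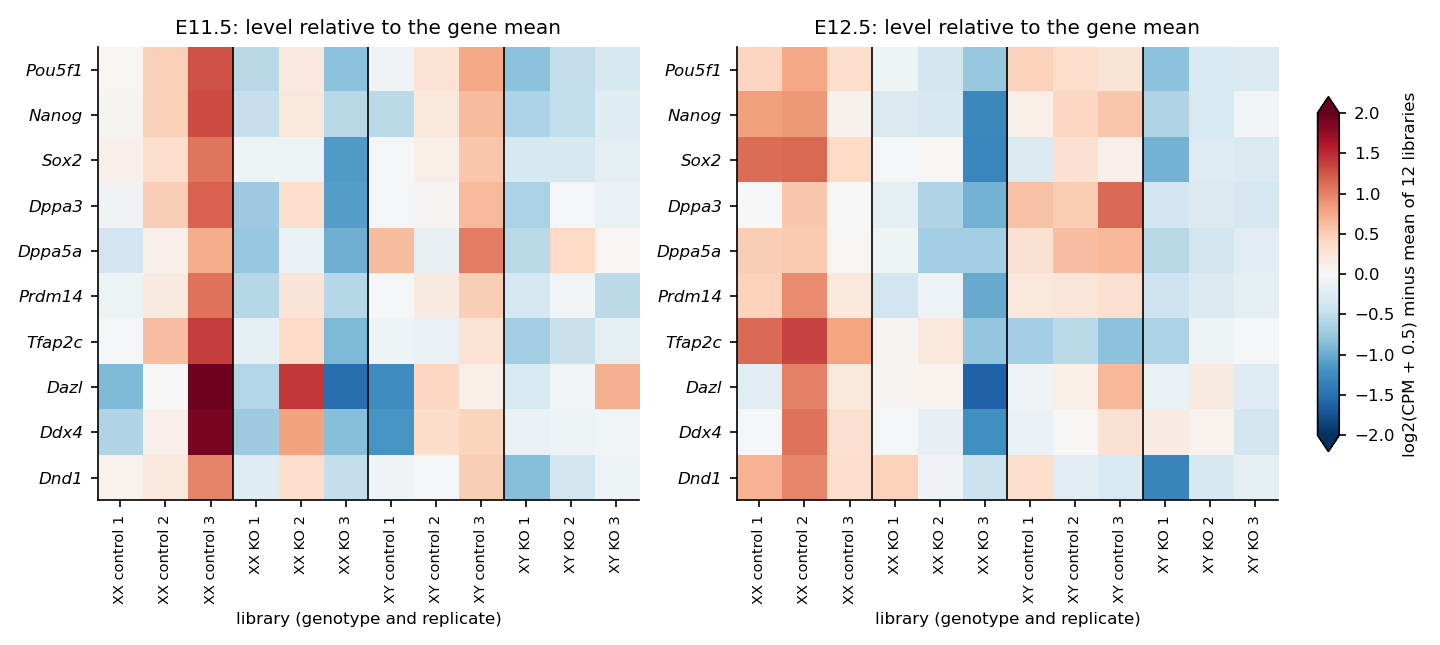
Level of each gene in each library as log2(CPM + 0.5) minus the gene's mean over the 12 libraries of the stage, E11.5 left and E12.5 right; red is above and blue below the mean. Columns of one library share a colour across most genes: XX control 3 at E11.5 (summed level 335 CPM) and XX KO 3 at E12.5 (420 CPM) stand apart. So do XX KO 2 at E11.5 (176 CPM) and XX control 2 at E12.5 (1780 CPM). Tfap2c in XY controls at E12.5 (12.3 to 15.0 CPM) is below its mean where most other genes of those columns are above theirs.

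The 10 genes varied together from library to library. Over the 12 libraries of a stage, which share genotype and dissection, Pearson's r of a gene with the mean of the other 9 lay between 0.664 (Dppa5a) and 0.96 (Dppa3) at E11.5 and between 0.564 (Tfap2c) and 0.963 (Prdm14) at E12.5. Within genotypes, after each genotype's mean was removed, the value of Tfap2c at E12.5 was 0.872. Among genes outside the set, those whose level was most like the mean of the 10, by Pearson's r over 12 libraries, were Tdh (0.978), Rhox5 (0.977) and Tcl1 (0.976) at E11.5. At E12.5 they were Rpusd2 (0.98), Dppa4 (0.973) and Sall4 (0.962). These are descriptions of 12 libraries and carry no test.

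Of a list of 32 other pluripotency and primordial germ cell genes, 31 were tested. In XX gonads at E12.5, 14 fell and 0 rose, with a median log2 fold change of -0.85, where 1.85% of all tested genes were called lower. The drop in calls over all genes without single XX libraries, given above, bears on this count too. Esrrb, a pluripotency nuclear receptor, fell by 1.26 (standard error 0.26, FDR = 0.0179; edgeR), L1td1 by 1.21 and Sall4, a zinc finger factor of germ cells, by 1.20. In XY gonads 6 fell and 5 rose, with a median of -0.42, where 10.3% of all tested genes were called lower and 10.3% higher. L1td1 fell by 1.67 (FDR = 0.000596) and Utf1 by 1.32, whereas Nr6a1, a nuclear receptor that represses Pou5f1, rose by 1.88 (FDR = 0.000409) and the X-linked homeobox genes Rhox6 and Rhox9 by 0.98 and 0.82. Between the controls 9 were higher in XX, led by Nr6a1 (2.95), Rhox6 (2.90) and Rhox9 (2.69), and 0 lower, where 11.4% of all tested genes were higher. At E11.5 Lin28a was called lower in XX KO gonads (-0.86, FDR = 0.0342) and Utf1 in XY KO gonads (-1.27, FDR = 0.0487), and no other gene of the list was called.

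Of 23 tested genes of the piRNA pathway and meiosis, 3 rose and 1 fell in XY KO gonads at E12.5, no larger a share than the 20.6% called over all tested genes. The 3 were Stra8, the gatekeeper of meiosis (0.145 ± 0.0661 to 16.0 ± 9.43 CPM, n = 3), the meiotic cohesin Rec8 (4.72 ± 1.95 to 60.9 ± 12.8 CPM) and Tex15 (37.5 ± 7.75 to 85.0 ± 24.6 CPM). Tdrd5 fell by 1.22 (FDR = 0.000944; edgeR). In XX KO gonads 2 fell, Mov10l1 (-1.05) and Tex19.1 (-0.92), and 0 rose, where 1.85% of all tested genes were called lower and 3.42% higher. This count too is subject to the drop in calls without single XX libraries. At E11.5 Tdrd5 was lower in both KO genotypes (-1.15 in XY and -1.31 in XX) and Tdrd1 rose by 0.93 in XY KO gonads. Of all tested genes 6.81% were called lower and 5.88% higher in XY, and 1.46% lower in XX gonads.

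Of 9 genes of Nodal signalling and male germ cell fate, 8 were tested at E12.5. Nanos2, which drives the male germ cell fate, passed the filter on low counts through XY controls alone (1.59 ± 0.96 CPM, and 0.0091 ± 0.0158 CPM in XY KO gonads, n = 3), so that its lower level there was fixed by the filter. Of the other 7, 6 fell in XY KO gonads and 0 rose, with a median of -4.05, where 10.3% of all tested genes were lower. Among them were Lefty1, a Nodal inhibitor and target (34.9 ± 4.35 CPM in XY control and 1.32 ± 0.605 CPM in XY KO gonads, n = 3) and Lefty2 (103 ± 5.82 and 3.05 ± 2.14 CPM). In XX KO gonads 1 of these 7 fell, Tdgf1 (-2.87), where 1.85% of all tested genes were called lower. Between the controls 6 of the 7 were lower in XX than in XY, with a median of -2.63, where 12.4% of all tested genes were lower. The 7 include Fgf9 and Cyp26b1, which are also counted among the somatic signals. Of 12 somatic signals to germ cells, 4 rose and 6 fell in XY KO gonads, against 10.3% of all tested genes in each direction. Cyp26b1, a member of both lists that degrades the retinoic acid that starts meiosis, fell from 342 ± 37.3 to 20.5 ± 7.97 CPM, and Kitl, the ligand of the germ cell receptor KIT, rose from 348 ± 67.0 to 809 ± 153 CPM. In XX KO gonads only Wnt5a was called, a rise of 0.74, where 3.42% of all tested genes were called higher. The drop in calls without single XX libraries bears on these XX KO counts as well. At E11.5 only Kitl of these 12 was called in XX KO gonads, a fall of 0.76 (FDR = 0.00446, edgeR), where 1.46% of all tested genes were lower. In XY KO gonads 2 of the 12 were called higher and 3 lower, against 5.88% and 6.81% of all tested genes. Cyp26b1 was among the lower ones, by 1.23 (FDR = 3.49e-05, edgeR).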

How the data were processed

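RNA-seq was made from 24 gonad libraries. The authors mapped read pairs to mm10 with align and counted them with featureCounts of the R subread package, and deposited whole-number counts per gene that were not normalized. Which annotation and strand setting were used, and how multi-mapping reads were handled, are not given in the sources used here, so antisense overlaps and pseudogene copies can share counts. Genes that reached 1 CPM in 2 or more of a stage's 12 libraries entered the tests, made in R 4.3.3 with edgeR 4.0.16 (TMM, 1 model per stage, robust quasi-likelihood test, Benjamini-Hochberg over all tested genes, FDR under 0.05). DESeq2 1.42.0, other scalings and filters, a replicate block and leaving out each library were alternatives. The standard error of a log2 fold change was its absolute value over √F. With 3 libraries against 3, the smallest two-sided exact permutation p is 0.1, so no single-gene permutation test is given. RPKM used GENCODE M21 union exon lengths. All 10 genes are named in every comparison, and of the other lists at most the 4 largest called genes each way. Members and lists were chosen with earlier results of these data known. From the list of Nodal signalling and male germ cell fate and from that of neural crest markers, 1 gene each is not reported here and was left out of the lists' values. Of the tables of Foxl2 mutants, 6 columns were not used, and the columns of XY controls served only as a second count.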

Additional observations from a re-analysis of the deposited data

Results flagged for a closer look

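Tfap2c at E12.5 was singled out because the deletion acted differently in the sexes by a direct test. The effect in XY minus that in XX gonads was 1.68 on the log2 scale (standard error 0.34, FDR = 0.00419; edgeR). The value held in all 18 alternatives, between 1.42 and 1.89.

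Tfap2c in XY gonads was also singled out because its KO libraries lay on opposite sides of the control mean at the 2 stages. At E12.5 all 3 XY KO libraries lay above the mean of the XY controls (log2 fold change 0.45), and at E11.5 all 3 lay below it (-0.50). Neither value was called, the stages differ in tissue and library kit, and the difference between them was not tested.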

How the results depend on the processing

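Over 1880 recomputed values of single genes, 0 called values reversed, 23 lost and 27 gained the threshold, and 63 changed sign while called in neither fit. The 3 calls in XY gonads at E12.5 held in 19 of 19 alternatives, as did Tfap2c between controls (1.67 to 1.95). With DESeq2 the genes called numbered 1 in XX gonads at E11.5 (Sox2) and 4 between controls at E12.5, where library size as the only scaling gave 2. With only the genotypes compared in the fit, 1 was called in XY gonads at E11.5 (Pou5f1) and, at E12.5, 4 between controls, 5 in XY and 2 in XX gonads. With 1 library left out, the count ranged from 0 to 1 in XX gonads at E11.5, from 1 to 3 between controls and from 0 to 7 in XX gonads at E12.5. The 0 arose without XX control replicate 1 or without XX control replicate 2, and 1 was called without XX KO replicate 3; over all tested genes these fits called 35, 83 and 117 instead of 755. With the low-count filter removed, and without XY control replicate 3, Sox2 was not called in XX gonads. The cause was not tested.

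Same-numbered libraries correlated between -0.438 and 0.39 in their deviations, so the numbers were not taken as pairs. With a replicate block the counts called stayed at 6 in XX and 3 in XY gonads at E12.5, 1 between controls and 1 for the interaction, and 0 at E11.5. Groups of 3 libraries limit what could be called. Prdm14 was low at E11.5 (at most 5.10 CPM). Its standard errors for KO against control were 0.37 in XX and 0.38 in XY gonads, against 0.35 in each for Pou5f1.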

Other observations

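The XY control libraries were counted a second time in the tables of the Foxl2 mutants. Over the 6 libraries the second total was 1.08 to 1.14 times the first. Nanog, Prdm14, Tfap2c, Dazl, Ddx4 and Dnd1 had between 0.976 and 1.04 times their first counts, whereas Pou5f1 had 0.793 to 0.883, Sox2 0.835 to 0.87, Dppa5a 1.05 to 1.13 and Dppa3 1.23 to 1.32 times. Only XY controls were counted a second time, so whether the counts of the other genotypes would shift alike is not known. The second counts enter none of the comparisons.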
